A study of Homo sapiens with 6 samples.

Results

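The RNA-seq libraries numbered 2, 1 from WT and 1 from LSD1 KO HCT116 cells, were compared with the 4 libraries numbered 1 and 3, so that 2 of the 6 libraries were described against the rest, with genotype as a covariate. HCT116 is a human colorectal carcinoma line of epithelial origin, grown here in McCoy's 5A medium with fetal bovine serum. The LSD1 KO cells were made by transient transfection of a Cas9 vector with a guide against exon 1 of LSD1, the gene KDM1A, followed by puromycin selection and expansion of single clones; which clone or clones the 3 LSD1 KO libraries came from is not given in the sources used here. The labels state neither whether the 3 numbers of a genotype were separate cultures nor what a number stands for, so the replicate number cannot be told apart from any culture, extraction or library step that followed it. The replicate 2 libraries were chosen from these same expression values because they stood apart in both genotypes. All values of the replicate 2 difference are therefore given as a description, without a test.

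Libraries from cells of 1 line can differ through the state of the culture and through the handling of the RNA. Growing cells devote much of their mRNA to short, abundant transcripts that encode ribosomal and respiratory chain proteins, whereas transcripts of chromatin regulators and transcription factors are often long and carry long untranslated regions. Immediate early genes, hypoxia genes and sterol synthesis genes follow the serum, oxygen and lipid supply of a culture, and epithelial junction genes and their mesenchymal counterparts mark the epithelial or mesenchymal state of carcinoma cells.

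Total counts ranged from 25379279 to 29186963, and the replicate 2 libraries, with 27662161 and 28638910, lay inside this range. KDM1A had 231, 224 and 214 CPM (counts scaled to library size, with TMM factors) in WT 1, 2 and 3 and 29.9, 27.6 and 27.8 CPM in LSD1 KO 1, 2 and 3, so the genotype labels held in both replicate 2 libraries. Of the 7 epithelial and intestinal markers, 6 exceeded 1 CPM. The 7 summed to 3816 CPM in WT 2 against 2041 and 2726 CPM in WT 1 and 3, and to 3157 CPM in LSD1 KO 2 against 2418 and 2598 CPM. The sums were mostly KRT8 and KRT19, which with CDX2 were highest in replicate 2 in both genotypes. EPCAM and KRT18 were highest in WT 2 within WT but lowest in LSD1 KO 2 within LSD1 KO. CDH1 had 34.2 CPM in WT 2 against 45.4 CPM in WT 3, and 24.4 CPM in LSD1 KO 2 against 37.5 CPM in LSD1 KO 3. VIL1 did not reach 1 CPM in any library. The 11 fibroblast markers summed to 67.3 and 89.0 CPM in the replicate 2 libraries and to between 49.6 and 75.8 CPM in the others, mostly FBLN1, with PDGFRA and LUM at 0. The 12 leukocyte markers summed to 21.1 and 23.6 CPM against 17.8 to 34.9 CPM, mostly CD68, with CD3D and CD3E at 0, and the 7 endothelial markers in the table to 0.794 and 1.18 CPM against 1.02 to 2.57 CPM. The 10 embryonic kidney and neural markers, which stand for the embryonic kidney line also used in the study, summed to 87.9 and 83.4 CPM against 52.4 to 58.8 CPM, mostly GAL, with NEFM and INA at 0. Their part in the results was not tested, and in bulk RNA fewer cells of a type and less RNA per cell cannot be told apart.

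Of the 5 contrasts among the 6 libraries, the replicate 2 libraries against the others held the largest share of the variation. Of the summed squares of log2 CPM around the gene means over 17672 genes, 42.16% fell on this contrast, 21.36% on replicate 3 against replicate 1, 16.54% on genotype and 12.08% on the genotype by replicate 2 product. Within WT, 64.15% of the squares around the group mean belonged to the replicate 2 contrast, and within LSD1 KO 65.84%. The WT and LSD1 KO differences had the same sign in 73.5% of genes and a Pearson's r of 0.553 across genes. Genes are not independent replicates, and the libraries were chosen for standing apart in both genotypes. This agreement therefore follows from the choice and is given as a description. A difference of at least 2-fold was found in 1945 genes in WT and in 2137 genes in LSD1 KO.

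A gene was called set apart when its fitted difference was at least 2-fold and when, in each genotype, the replicate 2 library lay outside both other libraries in the same direction. By this rule 434 genes, 2.46% of those tested, were higher in replicate 2 and 1054 genes, 5.96%, were lower. At 1.5-fold the numbers were 1685 (9.53%) and 2294 (13%), and without a size limit the replicate 2 libraries lay outside the others in both genotypes in 4431 genes (25.1%) on the high side and in 4603 genes (26%) on the low side. The count of higher genes rested in part on single WT libraries, since it was 772 without WT 3 and 852 without WT 2, where fewer libraries had to be exceeded. RHBDL1 at 1.000559 and LINC01496 at -1.000411 on the log2 scale were the genes just inside the limit, and TLCD3B at 0.9999964 and PPP5D1P at -0.9995395 those just outside.

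**Figure D1:**
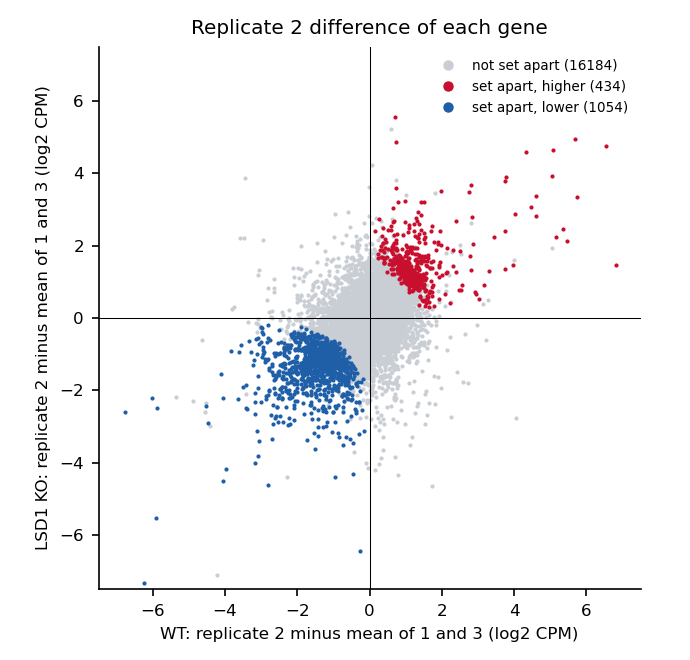
Replicate 2 minus the mean of replicates 1 and 3 in log2 CPM for each of 17672 genes, in WT on the horizontal and in LSD1 KO on the vertical axis. Red points are the 434 genes set apart as higher and blue points the 1054 set apart as lower, which lie in opposite quadrants because the rule asks for the same direction in both genotypes.

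The leading protein-coding genes with a mean of at least 10 CPM were mostly shorter than the median protein-coding transcript on the high side, with CXCR5 an exception at 4293 bases, and mostly longer on the low side, with SCGB3A2 and MT-ND4L as exceptions at 516 and 297 bases. The first 90 coding bases of the canonical transcript are shown for 4 higher and 3 lower genes, so that base composition and coding start can be compared. The genes were taken from those with the largest differences among genes whose exon bases mostly lie outside other genes. On the low side MPV17L also met this rule, with a larger difference than PRKAA2, but is not shown. Capitals mark G and C, and the sequences are from GENCODE v44lift37. The first 4 genes were higher in both replicate 2 libraries.
VGF: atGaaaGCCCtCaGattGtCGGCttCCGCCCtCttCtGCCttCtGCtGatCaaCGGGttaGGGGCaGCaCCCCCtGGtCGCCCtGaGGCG
DBP: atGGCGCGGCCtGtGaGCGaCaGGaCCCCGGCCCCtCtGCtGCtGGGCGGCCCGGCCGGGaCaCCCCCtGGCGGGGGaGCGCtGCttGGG
TMEM158: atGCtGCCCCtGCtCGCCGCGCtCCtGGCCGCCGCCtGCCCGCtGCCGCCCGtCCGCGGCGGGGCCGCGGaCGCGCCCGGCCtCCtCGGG
TMSB10: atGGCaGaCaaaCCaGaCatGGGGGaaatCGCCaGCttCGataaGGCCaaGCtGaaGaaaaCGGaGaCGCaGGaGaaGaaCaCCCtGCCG
The other 3 were lower in both replicate 2 libraries, PRKAA2 mainly in LSD1 KO, with a log2 difference of -4.32 there and -0.45 in WT.
ZBTB20: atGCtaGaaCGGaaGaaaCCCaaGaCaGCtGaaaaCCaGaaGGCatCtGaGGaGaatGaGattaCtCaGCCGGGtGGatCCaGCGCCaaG
REL: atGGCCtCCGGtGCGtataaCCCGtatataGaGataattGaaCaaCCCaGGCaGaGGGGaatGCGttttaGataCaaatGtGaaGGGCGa
PRKAA2: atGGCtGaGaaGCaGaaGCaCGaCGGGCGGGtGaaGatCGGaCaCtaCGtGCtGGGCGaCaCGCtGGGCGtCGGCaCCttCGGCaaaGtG

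In these windows the GC content was 62.2, 78.9, 85.6 and 54.4% in the 4 higher genes and 51.1, 46.7 and 63.3% in the 3 lower genes, so the ranges of both sides overlapped. In the same window of the lower gene MPV17L, which is not shown, the GC content was 75.6%, above that of VGF and TMSB10. Over the whole transcript it was 70.48, 65.21, 66.85 and 53.36% in these higher genes and 39.43, 38.42 and 35.22% in these lower genes. The lack of overlap held only for the genes shown. Among the other leading protein-coding genes, the higher genes CYB5A and SAT1 had 43.45 and 43.85%. The lower genes MPV17L, SCGB3A2 and SRCAP had 44.47, 44.38 and 57.39%. The transcripts of the higher genes had 2551, 2170, 1822 and 461 bases, and those of the lower genes 27503, 11108 and 9355 bases. On GRCh37, VGF lies at chr7:100805790-100808850 on the minus strand, DBP at chr19:49133287-49140636 on the minus strand, TMEM158 at chr3:45265958-45267779 on the minus strand and TMSB10 at chr2:85132780-85133795 on the plus strand. ZBTB20 lies at chr3:114033347-114866139 on the minus strand, and REL at chr2:61108626-61158747 and PRKAA2 at chr1:57110987-57181008 lie on the plus strand.

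VGF, which encodes a secreted neuropeptide precursor of granule-forming cells, had 688 CPM in WT 2 against 164 and 486 CPM in WT 1 and 3, and 1607 CPM in LSD1 KO 2 against 135 and 418 CPM. Both replicate 2 libraries were the highest of their genotype, and the fitted log2 difference was 1.87 (SE 0.54). DBP, a circadian PAR bZIP transcription factor, had 81.8 CPM in WT 2 against 18.8 and 53.3 CPM, and 161.0 CPM in LSD1 KO 2 against 15.3 and 45.5 CPM, with a log2 difference of 1.84 (SE 0.50). For both genes replicate 3 lay between replicates 1 and 2 in either genotype. TMEM158, a membrane protein known as a target of oncogenic Ras signalling, had 137 CPM in WT 2 against 23.1 and 102 CPM, and 523 CPM in LSD1 KO 2 against 54.6 and 192 CPM. TMSB10, which encodes an actin monomer-binding thymosin, had 1264.5 CPM in WT 2 against 286 and 663 CPM, and 1443.0 CPM in LSD1 KO 2 against 349 and 555 CPM. SAT1, the acetyltransferase of polyamine breakdown, had 409 CPM in WT 2 against 107 and 275 CPM, and 889 CPM in LSD1 KO 2 against 165 and 418 CPM. The spread between replicates 1 and 3 was smaller in CCDC85B, with 365 CPM in WT 2 against 109 and 184 CPM and 441 CPM in LSD1 KO 2 against 120 and 188 CPM, but its log2 difference of 1.42 became 0.69 after the correction for length and GC content described below, and it was then not set apart. CYB5A, the electron donor cytochrome b5, had a log2 difference of 1.47 (SE 0.29). ADIRF and TNFRSF6B, the latter a decoy receptor for death ligands, differed by 1.83 (SE 0.42) and 1.70 (SE 0.70), but 89.3% of the exon bases of ADIRF lie opposite ADIRF-AS1 and those of TNFRSF6B lie wholly within the readthrough gene RTEL1-TNFRSF6B, so their counts are uncertain.

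On the low side, ZBTB20, a zinc finger repressor, had 5.83 CPM in WT 2 against 56.7 and 33.0 CPM, and 9.95 CPM in LSD1 KO 2 against 45.8 and 48.3 CPM, a log2 difference of -2.57 (SE 0.28). REL, which encodes the c-Rel subunit of NF-kappaB, had 3.41 CPM in WT 2 against 27.7 and 20.7 CPM, and 6.34 CPM in LSD1 KO 2 against 23.7 and 28.2 CPM. In both genes the 4 other libraries lay above both replicate 2 libraries. Of the exon bases of ZBTB20, 43.0% are shared on the same strand with ENSG00000259976, and of those of REL 33.3% with ENSG00000267520. These partners differed by -1.16 and -0.38 on the log2 scale, and the division of reads with them is uncertain. SRCAP, the ATPase that deposits the histone variant H2A.Z, had 15.6 CPM in WT 2 against 114 and 113 CPM, and 23.8 CPM in LSD1 KO 2 against 110.5 and 102 CPM. Of its exon bases, 73.1% are shared on the same strand with ENSG00000282034, which had 72.9 and 63.7 CPM in the replicate 2 libraries and 44.9 to 53.1 CPM in the others, so the division of reads between both genes is uncertain. NFAT5, the transcription factor of the osmotic stress response, had 89.2 CPM in WT 2 against 302 and 243 CPM, and 116 CPM in LSD1 KO 2 against 293.1 and 294 CPM. The mitochondrial gene MT-ND4L, a subunit of complex I, had 403 and 476 CPM in the replicate 2 libraries and 935 to 1471 CPM in the others. MPV17L differed by -2.26 (SE 0.31), CRYBG3 by -1.52 (SE 0.19) and the secretoglobin SCGB3A2, with a transcript of only 516 bases, by -1.69 (SE 0.34).

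**Figure D2:**
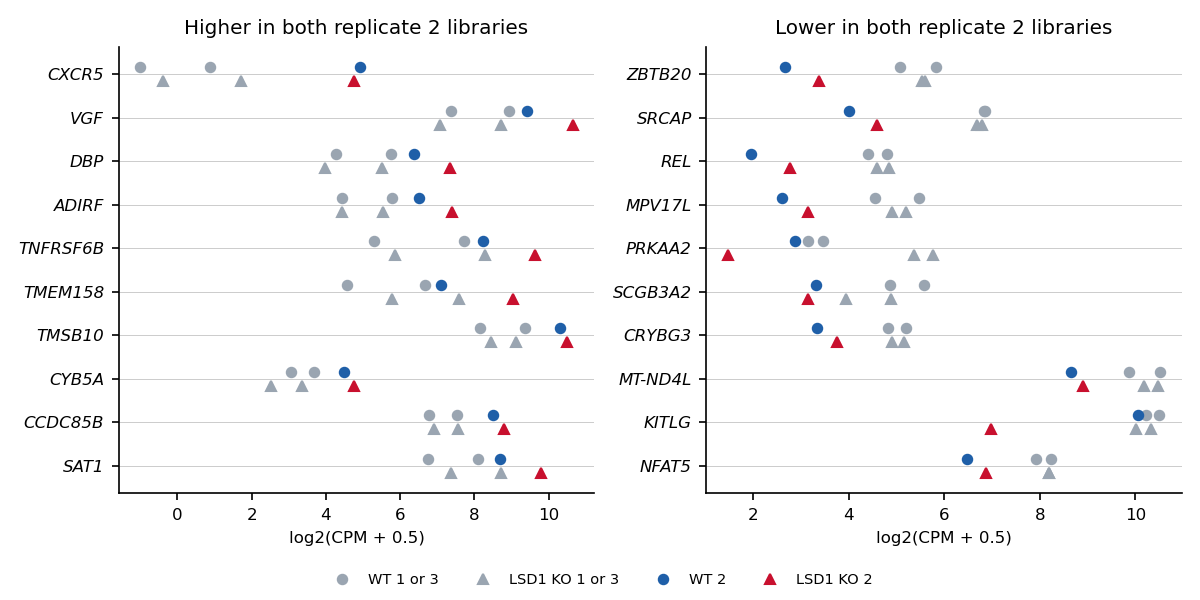
Level of 10 protein-coding genes higher and 10 lower in replicate 2, as log2(CPM + 0.5), with 1 point per library. Blue circles are WT 2, red triangles LSD1 KO 2, grey circles WT 1 and 3 and grey triangles LSD1 KO 1 and 3; in VGF, DBP, TMEM158 and SAT1 the grey points lie far apart, and in SRCAP, REL and NFAT5 they lie close together.

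Among all genes with a mean of at least 1 CPM, those with the largest differences were mostly low, unnamed or overlapping genes. The lncRNA gene ENSG00000176868 had 29.0 CPM in WT 2 against 0.302 and 0.795 CPM, and 17.5 CPM in LSD1 KO 2 against 0.393 and 0.606 CPM. CXCR5, a chemokine receptor of lymphocytes, had 29.7 and 26.7 CPM in the replicate 2 libraries and 0 to 2.79 CPM in the others, but 91.1% of its exon bases lie opposite BCL9L exons. ENSG00000254873 had 30.7 and 26.7 CPM against 0.0378 to 3.36 CPM, with 82.1% of its exon bases opposite UBE4A, and ZACN had 18.5 and 7.85 CPM against 0.644 to 0.751 CPM, with 61.6% opposite EXOC7. Reads of such genes cannot be told apart from those of the partner without strand, and whether strand was used in the counting is not given in the sources used here; BCL9L, UBE4A and EXOC7 themselves differed by -0.63, -0.74 and -0.51 on the log2 scale. FMC1-LUC7L2, a readthrough gene, had 0 counts in both replicate 2 libraries and 116, 201, 484 and 208 counts in the others, and was at least 80.9-fold lower against a floor of 3 counts per library. The pseudogene LSM12P1 also had 0 counts in both and 160, 94, 164 and 48 in the others, at least 37.6-fold lower. LUC7L2, which shares 82.9% of the exon bases of the readthrough gene, differed by 0.20. SERF1A, which has a near-identical copy in the genome, had 16.3 and 12.4 CPM in the replicate 2 libraries, 9.90 and 10.1 CPM in WT 1 and 3 and 0.393 and 0.0757 CPM in LSD1 KO 1 and 3, and is uncertain for that reason.

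Long non-coding and pseudogene transcripts were set apart mainly as lower. Of 2834 lncRNA genes tested, 88 (3.11%) were higher and 486 (17.1%) lower, and of 239 processed pseudogenes 7 (2.93%) were higher and 84 (35.1%) lower. Of 13697 protein-coding genes, 310 (2.26%) were higher and 336 (2.45%) lower. The lncRNA genes and processed pseudogenes were also the less expressed classes, with a median of 1.09 and 0.623 CPM against 29.3 CPM for protein-coding genes. The share of reads on lncRNA genes was 1.30 and 1.24% in the replicate 2 libraries and 1.43 to 1.54% in the others, and genes with any count numbered 25085 and 25629 against 26157 to 27197. The list of 31 long nuclear RNAs did not share this direction as a whole. Its median length was 2295 bases, beside 2855 bases for all genes tested. At 2-fold none was higher and 3 were lower, beside 2.46 and 5.96% of all genes. At 1.5-fold 4 (12.9%) were higher and 4 (12.9%) lower, beside 9.53 and 13% of all genes. Of the 31, 19 had a positive difference, and the median was 0.23. KCNQ1OT1, the antisense RNA of an imprinted domain, had 20.1 and 24.6 CPM in the replicate 2 libraries and 48.7 to 70.1 CPM in the others, TUG1 55.7 and 49.7 CPM against 84.2 to 144 CPM, SNHG14 3.86 and 4.31 CPM against 6.87 to 12.5 CPM, and FTX 16.6 and 21.3 CPM against 27.5 to 40.7 CPM. The short snoRNA host genes SNHG5 and SNHG8 were on the other side, with 76.3 and 98.0 CPM against 46.0 to 51.6 CPM and with 69.5 and 64.4 CPM against 39.8 to 40.5 CPM. MALAT1, at 204 and 265 CPM against 154 to 221 CPM, and NEAT1, at 311 and 288.5 CPM against 288 to 508 CPM, overlapped the other libraries.

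The replicate 2 difference varied with transcript length and with GC content. The mean transcript length, weighted by counts, was 3381 and 3460 bases in the replicate 2 libraries and 3870 to 4011 bases in the others. Genes in the shortest of 5 equal length classes, up to 1427 bases, took 22.2 and 22.0% of the counts against 17.2 to 18.9%, and genes in the longest class 17.1 and 17.9% against 22.6 to 24.1%. Among protein-coding genes, the median log2 difference was 0.41 in the shortest of 5 classes (up to 1814 bases), 0.21, 0.04 and -0.11 in the next 3 and -0.32 in the longest class (from 5791 bases). It was 0.50 and 0.34 in WT and LSD1 KO for the shortest class, and -0.37 and -0.26 for the longest. In the 578 protein-coding genes over 10000 bases the median was -0.52, with 68 set apart as lower and 1 as higher, and in the 798 genes under 1000 bases it was 0.53, with 88 higher and 17 lower. From the GC-poorest to the GC-richest of 5 classes the medians were -0.08, -0.06, -0.02, 0.11 and 0.34. Replicate 3 against 1 had a like order along GC, with medians of -0.15 to 0.21, and medians of at most 0.03 along length. Set-apart protein-coding genes had a median length of 1583 bases and a GC content of 59.3% when higher, and 4776 bases and 45.8% when lower, beside 3324 bases and 49.1% for all protein-coding genes tested.

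**Figure D3:**
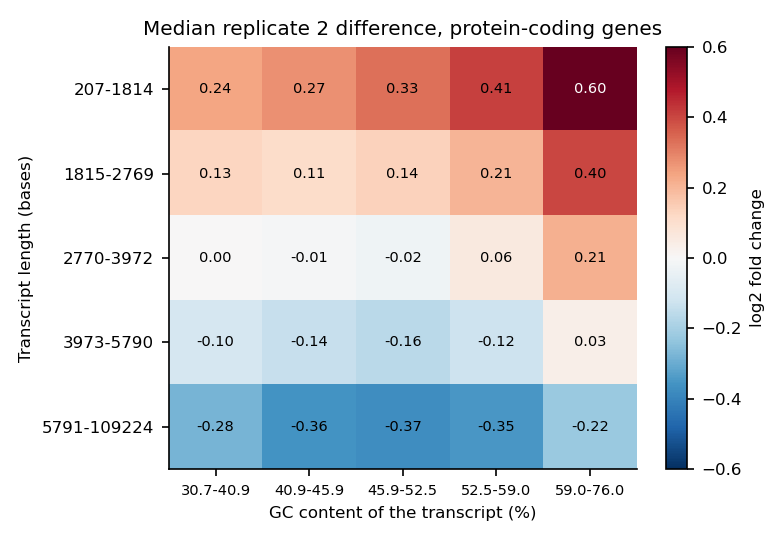
Median log2 difference of replicate 2 in protein-coding genes, in 25 cells of transcript length (rows, bases) and GC content (columns, percent), with the value printed in each cell and shown by colour. Short GC-rich transcripts had the highest median, 0.60, and the medians of the longest row lay between -0.37 and -0.22.

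When length and GC content were fitted in each library by splines and removed, 338 genes (1.94% of 17459) were set apart as higher and 793 (4.54%) as lower. At 1.5-fold the shares were 7.5% and 9.06%. Of the 426 higher genes with a corrected value 256 were set apart again, and the median over the 426 was 1.23 before and 1.13 after the correction. Of 1030 lower genes 744 were set apart again, with medians of -1.43 and -1.26. The share of summed squares on the replicate 2 contrast was 39.71% after the correction. Of 66 set-apart genes chosen by the rule for named genes that had a corrected value, 14 were no longer set apart, 10 of them because the corrected difference was under 2-fold. Among these, CCDC85B went from 1.42 to 0.69 on the log2 scale, CLDN3 from 1.09 to 0.48, NFAT5 from -1.47 to -0.95, TUG1 from -1.09 to -0.69, SNHG14 from -1.18 to -0.87, NDUFB7 from 1.03 to 0.69, NDUFA13 from 1.10 to 0.91, IFI6 from 1.04 to 0.91 and FOXD1 from 1.04 to 0.77. In KITLG, at -1.54, PRKAA2, at -2.01, and H3P6, at -1.51 after correction, the difference stayed over 2-fold but replicate 2 no longer lay outside the other libraries in both genotypes. Of the genes named below at 1.5-fold, MVD, EIF2AK2, PARP14, DSP, TJP1, CLDN3, KRT19 and RPS2 were not set apart after the correction.

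Ribosomal proteins were the gene group that was most evenly higher. All 78 cytosolic ribosomal protein genes tested had a positive log2 difference, from 0.20 to 1.15, with a median of 0.58 beside -0.01 for all genes tested, and 39 were set apart at 1.5-fold, beside 9.53% of all genes. The median was 0.72 in WT and 0.42 in LSD1 KO, and 0.61 after the correction for length and GC content. At 2-fold 1 of the 78 was set apart. These genes were short, with a median length of 827 bases. All 798 protein-coding genes under 1000 bases had a median difference of 0.53. The correction was fitted over all biotypes, whose shortest class had a median of 0.22, beside 0.41 in protein-coding genes. A difference beyond that of other short coding genes was not tested. RPL36 had 532 CPM in WT 2 against 141 and 294 CPM, and 483 CPM in LSD1 KO 2 against 187 and 296 CPM. RPL41, the smallest ribosomal protein, had 1137 CPM in WT 2 against 410 and 639 CPM, and 1068 CPM in LSD1 KO 2 against 505 and 686 CPM. RPS2, which was more even between replicates 1 and 3, had 5032 CPM in WT 2 against 2619 and 3015 CPM, and 5216 CPM in LSD1 KO 2 against 3060 and 2943 CPM. Ribosomal protein genes have many processed pseudogenes, so reads of both can be exchanged in the counting. Together the ribosomal protein genes took 8.42 and 8.38% of the counts of the replicate 2 libraries and 5.44 to 6.62% of the others. The 42 ribosome biogenesis factors, which build the subunits in the nucleolus, did not share this, with a median of -0.10. At 1.5-fold 2 (4.76%) were higher and 5 (11.9%) lower, beside 9.53 and 13% of all genes.

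The nuclear genes of the respiratory chain resembled the ribosomal proteins, and the mitochondrial genome did not. Of 75 nuclear OXPHOS subunit genes, 73 had a positive difference. At 1.5-fold 30 (40.0%) were set apart as higher and none as lower, beside 9.53 and 13% of all genes. At 2-fold 4 were higher, beside 2.46% of all genes. The median was 0.50, or 0.55 after correction. With a median length of 783.5 bases these genes were short as well, and a difference beyond that of other short coding genes was not tested. NDUFA13, a complex I subunit, had 105 and 97.8 CPM in the replicate 2 libraries and 35.8 to 54.9 CPM in the others. NDUFB7, also of complex I, had 69.4 and 64.1 CPM against 29.4 to 33.9 CPM, and COX6B1, of complex IV, 123 and 123 CPM against 42.6 to 74.9 CPM. Of the 13 mRNAs encoded in mitochondria, none was higher and 3 (23.1%) were lower at 1.5-fold, with a median of -0.25. These were MT-ND4L, MT-ATP8, with 413 and 510 CPM against 827 to 1099 CPM, and MT-ND5, with 2108 and 2350 CPM against 3104 to 4399 CPM. The first 2 are short reading frames that overlap or adjoin a neighbour in 1 transcript, so the division of their reads is uncertain. Mitochondrial genes as a whole took 6.27 and 6.89% of counts in the replicate 2 libraries and 6.24 to 8.70% in the others.

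Sterol synthesis genes were higher in part in replicate 2. Of 26 genes 25 had a positive difference. At 1.5-fold 9 (34.6%) were set apart as higher and none as lower, beside 9.53 and 13% of all genes. The medians were 0.46 in the joint fit, 0.26 in WT and 0.69 in LSD1 KO. INSIG1, a sterol-sensing retention protein that is itself a sterol-regulated target, had 88.0 CPM in WT 2 against 61.6 and 80.02 CPM, and 184 CPM in LSD1 KO 2 against 71.6 and 46.0 CPM. MVD, of the mevalonate pathway, had 110 CPM in WT 2 against 61.6 and 77.9 CPM, and 99.0 CPM in LSD1 KO 2 against 55.0 and 57.4 CPM. The 16 fatty acid synthesis genes had a median of -0.18, with none higher and 2 (12.5%) lower at 1.5-fold, the latter near the 13% of all genes.

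Genes that follow oxygen and serum were higher in part. Of 38 hypoxia response genes, 32 had a positive difference, with a median of 0.38. At 1.5-fold 7 (18.4%) were set apart as higher and none as lower, beside 9.53 and 13% of all genes. ANKRD37 had 10.4 CPM in WT 2 against 3.70 and 5.2 CPM, and 18.5 CPM in LSD1 KO 2 against 6.19 and 9.20 CPM, and ANGPTL4, a secreted lipase inhibitor, had 45.1 CPM against 13.7 and 27.8 CPM and 75.6 CPM against 31.4 and 43.7 CPM. BNIP3, of mitophagy, had 90.4 and 111 CPM in the replicate 2 libraries and 55.1 to 68.3 CPM in the others. NDRG1 was not set apart, since WT 2, at 344 CPM, lay below WT 3 at 360 CPM, whereas LSD1 KO 2 had 962 CPM against 267 and 493 CPM. Of 41 immediate early genes, 10 (24.4%) were higher and none lower at 1.5-fold, beside 9.53 and 13% of all genes, with a median of 0.27. JUNB, an AP-1 subunit, had 175 CPM in WT 2 against 78.2 and 116 CPM, and 248 CPM in LSD1 KO 2 against 88.5 and 98.1 CPM, and FOS, its partner, had 46.7 and 33.0 CPM in the replicate 2 libraries, 9.26 and 10.7 CPM in the replicate 1 libraries and 32.1 and 27.9 CPM in the replicate 3 libraries. The 23 glycolysis genes had a median of 0.29, with 3 higher and none lower. Hypoxia and immediate early genes also differed between replicates 3 and 1, with medians of replicate 3 over 1 of 0.28 and 0.42. In edgeR at a q value under 0.1, 9 and 12 of them were higher in replicate 3 and 0 lower, beside 5.9% higher of all genes.

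Among inflammatory and interferon genes the share set apart as higher at 1.5-fold lay above the 9.53% of all genes, and the share lower lay below the 13% of all genes. Of 23 NF-kappaB targets tested, 7 (30.4%) were higher and 1 (4.35%), REL, lower, with a median of 0.52, or 0.35 after correction. Within the genotypes the median was 0.222 in WT and 0.475 in LSD1 KO. The chemokine gene CXCL8 had 3.94 CPM in WT 2 against 2.34 and 2.68 CPM, and 11.8 CPM in LSD1 KO 2 against 1.5 and 2.12 CPM. CXCL3 and CXCL1, chemokines of the same family, stayed under 4 CPM in every library, with log2 differences of 1.23 (SE 0.34) and 1.19 (SE 0.38). NFKBIA, the inhibitor that retains NF-kappaB in the cytoplasm, had 33.2 and 31.7 CPM in the replicate 2 libraries and 14.4 to 25.2 CPM in the others. Of 46 interferon response genes, 10 (21.7%) were higher and 4 (8.70%) lower, with medians of 0.225 in the joint fit, 0.109 in WT and 0.422 in LSD1 KO. IFI6 had 60.2 CPM in WT 2 against 26.2 and 30.2 CPM, and 89.5 CPM in LSD1 KO 2 against 45.7 and 45.2 CPM. PSMB9, an immunoproteasome subunit, and ISG20, an exonuclease, differed by 1.08 (SE 0.21) and 1.10 (SE 0.20). The 4 lower genes, SAMD9, PARP14, OAS3 and EIF2AK2, encode antiviral effectors, and OAS3 had 48.7 and 51.1 CPM in the replicate 2 libraries and 67.6 to 123 CPM in the others. After the correction for length and GC content, 9 genes were higher and 2 lower.

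Some keratin and S100 genes were higher. Of 24 keratin and cornified envelope genes, 9 (37.5%) were higher and 1 (4.17%) lower at 1.5-fold, beside 9.53 and 13% of all genes. The medians were 0.48 in the joint fit, 0.69 in WT and 0.30 in LSD1 KO. S100A6, a calcium-binding protein, had 695 CPM in WT 2 against 280 and 389 CPM, and 1086 CPM in LSD1 KO 2 against 371 and 446 CPM. S100A10, the annexin A2 partner, had 184 and 209 CPM in the replicate 2 libraries and 62.8 to 127 CPM in the others. KRT19 had 1157 CPM in WT 2 against 548 and 789 CPM, and 1460 CPM in LSD1 KO 2 against 905 and 966 CPM. KRT18 and S100A14 were not set apart, with differences of 0.30 and -0.16. Of 38 junction genes, 3 (7.89%) were higher and 3 (7.89%) lower, with a median of 0.06. CLDN3 had 24.2 and 39.5 CPM in the replicate 2 libraries and 9.37 to 19.5 CPM in the others, CLDN2 2.01 and 2.95 CPM against 4.47 to 7.19 CPM, TJP1, a scaffold of tight junctions, 81.2 and 86.0 CPM against 119 to 159 CPM, and DSP, of desmosomes, 202 and 175 CPM against 264 to 336 CPM. Of 18 replication-dependent histone genes, 6 (33.3%) were higher and none lower at 1.5-fold, with a median of 0.39. All were low in these poly(A)-selected libraries, and H1-2 had 6.55 and 7.18 CPM against 1.82 to 3.78 CPM.

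**Figure D4:**
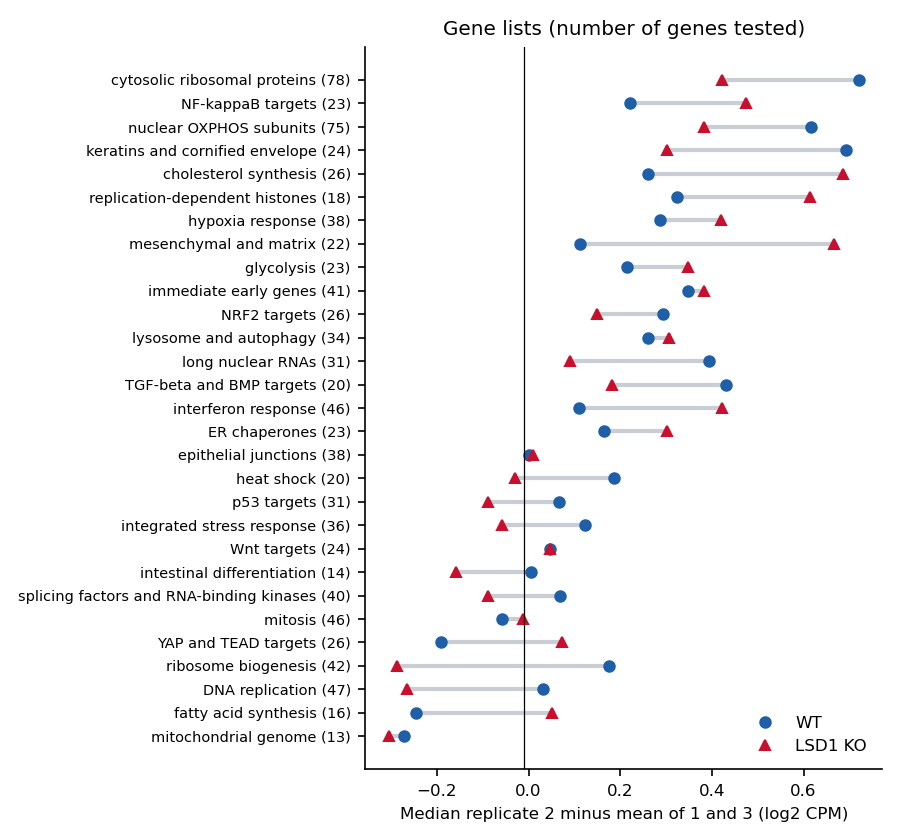
Median of replicate 2 minus the mean of replicates 1 and 3, in log2 CPM, for gene lists with at least 10 genes tested, with the number of genes in parentheses. Blue circles are WT and red triangles LSD1 KO, and the vertical line is the median over all 17672 genes; ribosomal proteins and OXPHOS subunits were further right in WT, and sterol synthesis and mesenchymal genes further right in LSD1 KO.

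Whether the replicate 2 difference itself differed between genotypes was tested by the genotype by replicate 2 product. This is a separate contrast from the mean difference over both genotypes. The libraries were chosen for standing apart in both genotypes, so the choice was not wholly independent of the product. In edgeR's quasi-likelihood fit, with q values adjusted after Benjamini and Hochberg, 0 of 17672 genes were under 0.1, while without adjustment 574 genes (3.25%) had p under 0.05. The smallest q value, 0.233, was that of the readthrough gene PEDS1-UBE2V1, which was at 0 in LSD1 KO 2 and between 6.25 and 8.27 CPM in the others. With the replicate number as a block, 1144 genes (6.47%) had a q value under 0.1, 636 higher (3.6%) and 508 lower (2.87%) in LSD1 KO 2 relative to WT 2. DESeq2 gave 22 genes, and all 22 were among the 1144. The block leaves 1 residual contrast per gene, so the spread in that fit rests on pooling over genes. Leaving out a library of replicate 1 or 3 changed the count of edgeR without the block from 0 to 18 without LSD1 KO 1, 28 without LSD1 KO 3, 7 without WT 1 and 14 without WT 3. Each genotype has 1 replicate 2 library, which the fit assumes to vary like the others, so a call cannot be told apart from a peculiarity of LSD1 KO 2 or WT 2 alone. Calls below are named with their test.

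The genes named next were low in LSD1 KO 2 relative to WT 2 and were chosen after their values had been seen. In the list of 38 epithelial junction genes, 3 were higher and 5 lower with the replicate block, beside 3.6 and 2.87% of all genes. Without it 3 had an unadjusted p under 0.05 in edgeR, beside 3.25% of all genes. The median interaction of the list was 0.03 on the log2 scale, so the genes named here do not describe the junction list as a whole. KITLG, the ligand of the receptor KIT, had 1443, 1068 and 1202 CPM in WT 1, 2 and 3 and 1278, 125 and 1032 CPM in LSD1 KO 1, 2 and 3, so LSD1 KO 2 stood far below the other 5 libraries, while WT 2 was the lowest of the WT libraries. Its interaction was -2.90 (SE 0.33), with a q value of 0.386 in edgeR, and it passed with the replicate block and in DESeq2 (q = 2.54e-11). PRKAA2, the alpha 2 catalytic subunit of AMP-activated kinase, had 8.35, 6.81 and 10.5 CPM in WT and 40.9, 2.28 and 53.6 CPM in LSD1 KO, and passed in DESeq2 (q = 1.71e-09). SCNN1A, a subunit of the epithelial sodium channel, had 61.7, 71.0 and 82.1 CPM in WT and 124, 25.3 and 125 CPM in LSD1 KO (DESeq2 q = 4.49e-05). RAB25, an epithelial trafficking GTPase, had 36.1, 55.3 and 38.1 CPM in WT and 40.5, 15.3 and 38.7 CPM in LSD1 KO (DESeq2 q = 0.0025). In RAB25, as in AP1M2, KRTCAP3 and PKP3, WT 2 was the highest and LSD1 KO 2 the lowest of the 6 libraries. AP1M2, the epithelial clathrin adaptor subunit, had 36.5 CPM in WT 2 and 4.86 CPM in LSD1 KO 2, with 14.9 to 28.1 CPM in the others. The desmosomal gene PKP3 had 85.7 CPM in WT 2 and 19.7 CPM in LSD1 KO 2, with 41.4 to 68.9 CPM in the others (DESeq2 q = 0.0709). KRT23 had 5.53 CPM in WT 2 and 0.258 CPM in LSD1 KO 2, with 3.48 to 5.79 CPM in the others (DESeq2 q = 0.0103). The adhesion gene EPCAM had 191, 248 and 173 CPM in WT and 134, 77.6 and 101 CPM in LSD1 KO, and CLDN7 69.6, 136 and 104 CPM and 73.9, 53.3 and 72.3 CPM. EPCAM and CLDN7 passed with the replicate block in edgeR (q = 2.01e-06 and 5.16e-07) and neither without it nor in DESeq2.

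Some genes of mesenchymal cells and of the matrix were higher in LSD1 KO 2 relative to WT 2. Of 22 such genes tested, 9 were higher and none lower with the replicate block, beside 3.6% higher of all genes. Without it 5 had an unadjusted p under 0.05 in edgeR, beside 3.25% of all genes. The median replicate 2 difference was 0.11 in WT and 0.67 in LSD1 KO. VIM, the intermediate filament of mesenchymal cells, had 34.2, 30.4 and 26.3 CPM in WT and 40.3, 97.7 and 30.02 CPM in LSD1 KO, with an interaction of 1.47 (SE 0.38) and no call in edgeR without the block. ZEB1, a repressor of epithelial genes, had 10.7, 8.25 and 9.94 CPM in WT and 17.9, 34.7 and 20.2 CPM in LSD1 KO. SNAI2, of the Snail family of repressors, had 0.340, 0.757 and 0.530 CPM in WT and 0.0715, 3.61 and 0.0379 CPM in LSD1 KO, where the outer 2 values are under the floor of 3 counts. COL12A1, a fibril-associated collagen, had 83.2 CPM in WT 2 against 165 and 139.5 CPM, and 131 CPM in LSD1 KO 2 against 77.6 and 89.7 CPM (DESeq2 q = 0.0402). Outside this list, LMO7 had 10.0 CPM in WT 2 against 14.5 and 15.5 CPM, and 27.0 CPM in LSD1 KO 2 against 9.30 and 10.1 CPM (DESeq2 q = 0.0392). The MAP kinase phosphatase DUSP4 had 226 CPM in WT 2, between 145 and 239 CPM, and 479 CPM in LSD1 KO 2 against 77.2 and 131 CPM (DESeq2 q = 0.0806). VIM, ZEB1 and SNAI2 passed with the replicate block in edgeR (q = 8.15e-11, 0.000145 and 0.00028) and were not called by DESeq2.

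**Figure D5:**
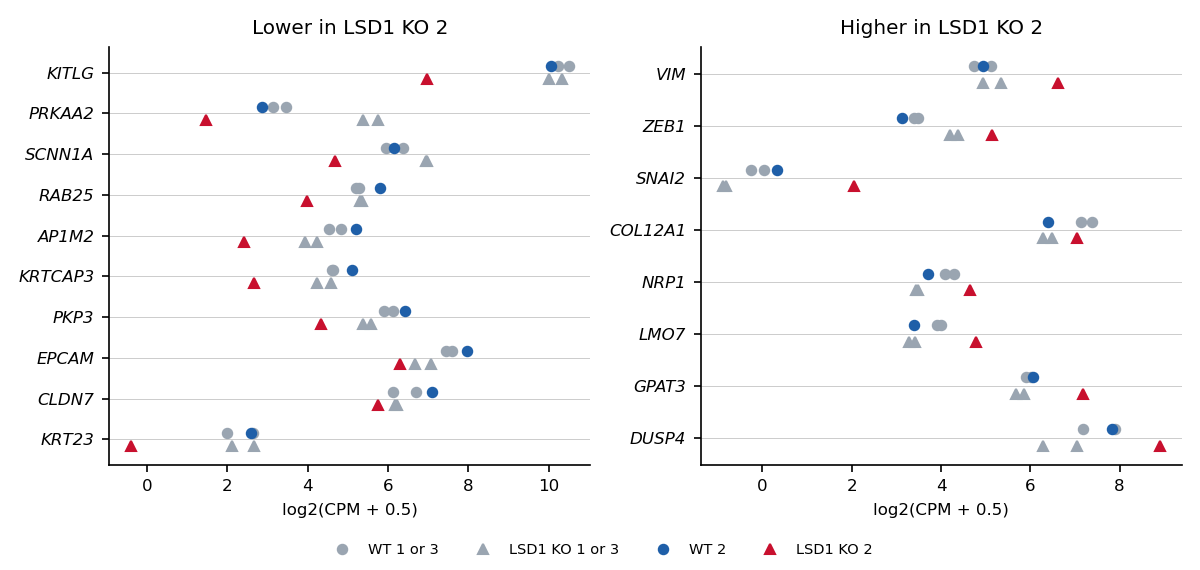
Level of 10 genes lower and 8 genes higher in LSD1 KO 2, as log2(CPM + 0.5), with 1 point per library and symbols as in the plot of leading genes. The red triangle of LSD1 KO 2 lies beyond both other LSD1 KO libraries in each of the 18 genes. The genes were chosen after their values had been seen.

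The same test was read in the other gene lists. With the replicate block, 10 of 26 sterol synthesis genes were higher in LSD1 KO 2 relative to WT 2 and none lower. Of all genes 3.6% were higher. The 10 included INSIG1, MSMO1 and STARD4. Without the block 6 of the 26 had an unadjusted p under 0.05 in edgeR, beside 3.25% of all genes. Of 42 ribosome biogenesis genes, 13 were lower and none higher with the block, and of 24 keratin and cornified envelope genes 7 were lower and 2 higher. Of the 78 ribosomal protein genes 3 were lower and none higher, and of the 75 OXPHOS subunit genes 3 were lower and none higher, beside 2.87% of all genes lower.

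The libraries numbered 1 and 3 also differed from each other. With replicate number and genotype in the fit, 1954 genes (11.1%) had a q value under 0.1 in edgeR, 1042 (5.9%) higher and 912 (5.16%) lower in replicate 3. This count rested on single libraries, since it was 89 without WT 3, 397 without LSD1 KO 3, 658 without LSD1 KO 1, 1291 without WT 1, 4708 without LSD1 KO 2 and 5240 without WT 2. FOXD1, a forkhead transcription factor, had 27.7 and 30.5 CPM in WT 1 and LSD1 KO 1, 82.6 and 93.0 CPM in WT 3 and LSD1 KO 3 and 121 and 119 CPM in the replicate 2 libraries, and its log2 difference of replicate 3 over 1 was 1.59 (edgeR q = 0.00227). The metallothionein gene MT1E had 319 and 406 CPM in the replicate 1 libraries, 69.9 and 71.7 CPM in the replicate 3 libraries and 132 and 96.6 CPM in the replicate 2 libraries, with -2.36 (edgeR q = 0.00273). The histone pseudogene H3P6 had 70.2 and 80.3 CPM in replicate 1, 7.92 and 11.6 CPM in replicate 3 and 7.5 and 9.51 CPM in replicate 2 (edgeR q = 0.000374). In all 3 genes the replicate 3 libraries lay nearer to replicate 2 than to replicate 1. FOXD1 and H3P6 also met the rule for replicate 2, as higher and lower, and MT1E did not. Over all genes set apart as higher in replicate 2, the median log2 difference of replicate 3 over 1 was 0.575. Over those set apart as lower it was -0.187. It was 0.03 in ribosomal protein genes, -0.10 in OXPHOS subunit genes and -0.06 in sterol synthesis genes.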

How the data were processed

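RNA was poly(A)-selected, prepared with a NEBNext Ultra kit and sequenced as paired reads by the authors. Per the submitters' processing notes and the study's methods, the authors checked reads with FastQC, trimmed them with Trimmomatic 0.39 and quantified them with Salmon 1.4.0 against GENCODE transcripts on GRCh38. They deposited expected counts per gene, whole numbers that were not scaled for library size; how transcripts were summed to genes is not given in the sources used here. Salmon divides reads between transcripts that share sequence, so values of overlapping genes are estimates. All 6 libraries of the table were used.

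Counts were analysed with edgeR 4.0.16 in R 4.3.3: TMM factors, filterByExpr by genotype (17672 of 60240 genes kept) and quasi-likelihood fits. The replicate 2 difference was fitted with genotype as a covariate and read without a test. The genotype by replicate 2 product and replicate 3 against 1 were tested at a q value under 0.1, the threshold of the study. P-values measure only the spread between these libraries, which may be technical. CPM are TMM-scaled, and differences within a genotype are on log2 CPM with a prior count of 2. A floor of 3 counts corresponds to 0.103 to 0.118 CPM before scaling and covers counting error only. DESeq2 1.42.0 was an alternative, as were other size factors, filters, thresholds, the replicate block, the correction for length and GC content with splines of 5 degrees of freedom (known for 98.8% of genes), and leaving out each library in turn. Symbols, positions, lengths and exon overlaps came from GENCODE v44lift37 on GRCh37, matched for 58395 genes by identifier, and promoters from RefSeq on GRCh38.p14. Tables and figures used Python 3.11.15, pandas 2.3.3 and matplotlib 3.10.9. The steps were tested on simulated data.

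Replicate numbers were checked for pairing. Deviations from the group means correlated between genotypes, at equal numbers, with r of 0.553, 0.553 and 0.404 across genes. At unequal numbers r was -0.516 to 0.0454. The r of replicate 2 follows from the choice of these libraries. Deviations sum to 0 within a genotype, which favours negative values at unequal numbers. Between replicates 1 and 3 alone, r at unequal numbers was -0.21 and 0.0454. The numbers were taken to pair the libraries from the data and not from the labels, and the pairing was not tested.

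The libraries, gene lists and tests were chosen with earlier results of these data known. Named genes were, among set-apart genes with a mean of at least 1 CPM, the 10 highest and 10 lowest, the 4 largest of each list with at least 3 set-apart members, KDM1A, and the 3 with the smallest p per direction past the threshold in each test. Defining members of the lists, the 10 protein-coding genes per direction with a mean of at least 10 CPM and the genes named for the interaction were added after their values had been seen. Some genes and sequences that were named by these choices are not reported here.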

Additional observations from a re-analysis of the deposited data

Results flagged for a closer look

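The test of whether the replicate 2 difference itself differed between LSD1 KO and WT gave 0 genes in edgeR's quasi-likelihood test without a block, 574 at an unadjusted p under 0.05. It gave 1144 genes with the replicate number as a block, of which 428 also had an unadjusted p under 0.05 without it. DESeq2's Wald test gave 22 genes, all among the 1144, led by KITLG, PRKAA2, SERF1A, PRSS33 and SCNN1A. PRSS33, a serine protease, had 0.0377, 0.529 and 0.232 CPM in WT 1, 2 and 3 and 13.9, 0.515 and 15.7 CPM in LSD1 KO 1, 2 and 3. SERF1A and RGPD5, which passed in DESeq2, belong to families of near-identical copies.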

How the results depend on the processing

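The count of genes set apart as higher was 434 and moved to 1685 at 1.5-fold, 248 with at least 10 counts in every library, 1347 with every gene kept and 369 to 852 when 1 library was left out; for lower genes (1054) the values were 2294, 546, 2176 and 1025 to 1490. Members of gene lists set apart numbered 50, against 226 at 1.5-fold, 80 with every gene kept and 31 to 92 without 1 library; the lowest was without LSD1 KO 1, and WT 2 (92) and WT 3 (88) moved it most upward. Fewer libraries or a lower limit make the rule easier to meet by construction. The interaction gave 0 genes, 22 with DESeq2, 150 with every gene kept, 1144 with the replicate block and 7 to 28 without 1 library. Replicate 3 against 1 gave 1954 genes, 2946 with every gene kept, 4703 with no replicate block in libraries 1 and 3 alone, 797 at a q value under 0.05 and 89 to 5240 without 1 library. The replicate 2 share of summed squares, 42.16%, was 45.99% with at least 10 counts, 32.12% with every gene kept and 39.71% after the length and GC correction; for these and the interaction the cause was not tested. Other size factors, DESeq2 and the replicate block left the replicate 2 counts within 1.5 times; with the block, 495 genes were higher, 1028 lower and 57 list members set apart. Of 1164 values of named genes under 14 alternatives, 144 moved by more than the spread between libraries and none of a set-apart gene turned sign; 19 values of 12 genes that were not set apart did, 9 of them without LSD1 KO 2, as for AP1M2, from -0.42 to 0.52, and COL12A1, from -0.05 to 0.64 without WT 2. Depth was similar across libraries and limits mainly genes near 1 CPM.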

Other observations

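The other gene lists are given beside 9.53% higher and 13% lower of all genes at 1.5-fold, with a median of -0.01. Among 47 DNA replication genes, 0 were higher and 3 lower at 1.5-fold, with a median of -0.13, and among 46 mitosis genes 1 was higher and 5 lower, with a median of -0.05. The medians were 0.01 for 36 integrated stress response genes and for 31 p53 targets, 0.04 for 20 heat shock genes and 0.25 for 26 NRF2 targets, of which 4 were higher and 0 lower. Of 34 lysosome and autophagy genes 28 had a positive difference, with a median of 0.24. Of 26 YAP and TEAD targets 5 (19.2%) were higher and 4 (15.4%) lower, of 24 Wnt targets 5 (20.8%) and 2 (8.33%), of 20 TGF-beta and BMP targets 5 and 0, and of 14 intestinal differentiation genes 1 (7.14%) and 3 (21.4%). The medians were 0.21 for 23 ER chaperones, 0.01 for 7 metallothionein and zinc genes and -0.03 for 40 splicing genes, of which 0 were higher and 4 lower.

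Promoters were described by motif letters found on either strand in 300 bases around the start, for 10924 protein-coding genes tested with a RefSeq entry. ACGTG, the core of the hypoxia-inducible factor element, was in 24.7% of 231 higher and 24.6% of 236 lower genes, against 26.2% of all. CCAAT was in 36.8 and 34.3% against 36.7%, TGACTCA in 4.33 and 4.66% against 3.1%, and ACATTCC in 2.16 and 2.54% against 2.09%. TGATGNAA was in 0.866 and 1.27% against 1.63%, TCACNCCAC in 1.73 and 2.12% against 1.06%, and the ISRE in 4.76 and 6.78% against 2.73%. The median GC content of these promoters was 65.3% in higher genes, 59.3% in lower genes and 65.3% in all.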
